A study of Homo sapiens with 15 samples.

Results

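Heated cells of the human liver cancer line MHCC-97H were compared with untreated cells grown in the same 3D model, gene by gene. Of the 15 libraries of the series, the 6 that belong to this comparison were used: 3 that the labels call the treatment control and 3 that they call heat treatment. MHCC-97H is an established hepatocellular carcinoma line, and neither genotype, drug nor any agent beside heat is named for either group. The labels state neither how hot nor how long the cells were heated, nor when RNA was taken, nor what the 3D model is made of. The study's title links heat resistance of liver cancer to SP1, a transcription factor, IL4I1, an enzyme that oxidises aromatic amino acids, and AHR, a receptor and transcription factor for aromatic ligands. All 12627 genes that passed a filter on low counts, of 19143 rows in the deposited table, were tested. The labels number the libraries as biological replicates but do not say that each came from a culture of its own, so p-values measure the spread between these libraries. Levels are given in CPM, read counts relative to the library total as scaled by edgeR's TMM method, and values of 3 libraries always stand in the order of replicates 1, 2 and 3.

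Heat unfolds proteins, and cells respond by making chaperones, which hold unfolded chains and help them refold. The switch is heat shock factor 1 (HSF1), which is held inactive by chaperones in unstressed cells and, once released, binds heat shock elements, repeats of the short unit GAA in alternating orientation. Its targets include the Hsp70 proteins, their J-domain partners, Hsp90, the small heat shock proteins and the co-chaperone BAG3. Heat also activates stress kinases that induce immediate early genes such as FOS and JUN family members. In liver tumours, chaperone levels matter for thermal ablation, where cells at the rim of the treated zone receive heat that is not lethal.

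Promoter windows of 5 chaperone genes that hold a heat shock element of 3 units are printed below, because these genes are the class that heat is known to induce, and show how alike the elements are. Sequences are from RefSeq on the build GRCh38.p14, read 5′ to 3′ on the gene's strand, with the element in capitals and 30 bases on each side.
HSPA6, chr1:161524436-161524508, + strand: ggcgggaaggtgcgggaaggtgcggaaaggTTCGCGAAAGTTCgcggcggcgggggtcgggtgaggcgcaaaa
HSPA8, chr11:123062149-123062221, - strand: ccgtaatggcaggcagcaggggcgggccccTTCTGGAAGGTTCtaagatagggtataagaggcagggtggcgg
HSP90AA1, chr14:102087090-102087162, - strand: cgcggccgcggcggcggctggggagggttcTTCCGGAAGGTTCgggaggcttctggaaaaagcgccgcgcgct
CHORDC1, chr11:90223057-90223139, - strand: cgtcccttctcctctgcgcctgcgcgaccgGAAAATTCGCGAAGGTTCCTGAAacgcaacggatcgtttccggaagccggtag
SERPINH1, chr11:75562147-75562219, + strand: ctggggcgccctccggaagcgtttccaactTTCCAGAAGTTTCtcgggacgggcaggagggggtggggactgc
The elements end 38 to 76 bases before the annotated start of transcription. CHORDC1, a co-chaperone of Hsp90, holds a longer run than the others. The motif searched was TTCNNGAANNTTC or GAANNTTCNNGAA, which are each other's complement, in windows from 250 bases before to 50 bases after each annotated start. It was found in 172 of 35116 windows (0.49%), and in 53 of the 10014 tested genes that had a window (0.529%). Of the 61 tested chaperone genes with a window, 8 held it (13.1%): HSPA6, HSPA8, HSPD1, HSP90AA1, HSP90AB1, DNAJA1, DNAJB6 and CHORDC1. Genes at least 2-fold above the control mean in every heated library held it in 1 of 113 cases (0.885%), that gene being HSPA6. A match is a run of letters and does not show that HSF1 was bound, and its absence from this window says nothing of elements elsewhere.

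The 3 heated libraries differed strongly from each other. Totals were 16789095, 16963026 and 16848333 counts in the controls and 15991686, 16112893 and 16097610 counts in the heated libraries, so depth was nearly even. Log-scale levels correlated across genes at 0.996 to 0.997 between controls, at 0.962 to 0.963 between heat replicate 2 and the controls, at 0.912 to 0.915 for heat replicate 3 and at 0.838 to 0.851 for heat replicate 1. Each gene's log2 difference from the mean of the 3 controls (with 0.5 CPM added) was therefore taken for each heated library apart. The SD of these differences over all genes was 1.36 in heat replicate 1, 0.58 in heat replicate 2 and 0.90 in heat replicate 3, against at most 0.172 in a control. Heat replicate 1 had 23.5% of genes at least 2-fold above and 24.4% at least 2-fold below the control mean. Heat replicate 2 had 3.25% and 4.45%, and heat replicate 3 had 11.3% and 10.7%.

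In heat replicate 1 the differences followed transcript composition. Their rank correlation with the GC content of the gene's longest coding transcript was 0.548 across genes, and with its length -0.470. Heat replicate 2 had -0.104 with GC content and heat replicate 3 had -0.222, within the range of the controls, which had -0.210, -0.295 and 0.416 when each was set against the mean of the other two. The controls' differences were small, as the medians by GC content show. From the lowest to the highest of 10 equal bins of GC content, the median moved from -1.25 to 0.998 in heat replicate 1, from 0.17 to -0.01 in heat replicate 2 and from 0.31 to -0.36 in heat replicate 3. In the controls they moved from 0.064 to -0.026, from 0.056 to -0.040 and from -0.12 to 0.071. Heat replicate 3 thus moved over a wider span than any control, though its rank correlation lay within their range. TMM factors of the heated libraries were 0.649, 1.28 and 1.08, against 1.02 to 1.04 in the controls. FTL, the ferritin light chain, took 4.57% of all counts in heat replicate 1 and 1.1% to 1.18% in the other 5 libraries. Genes of short, GC-rich transcripts are thus high in heat replicate 1, and the part of this in any one result was not tested except by a fit with an offset for these transcript features in every library.

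**Figure D1:**
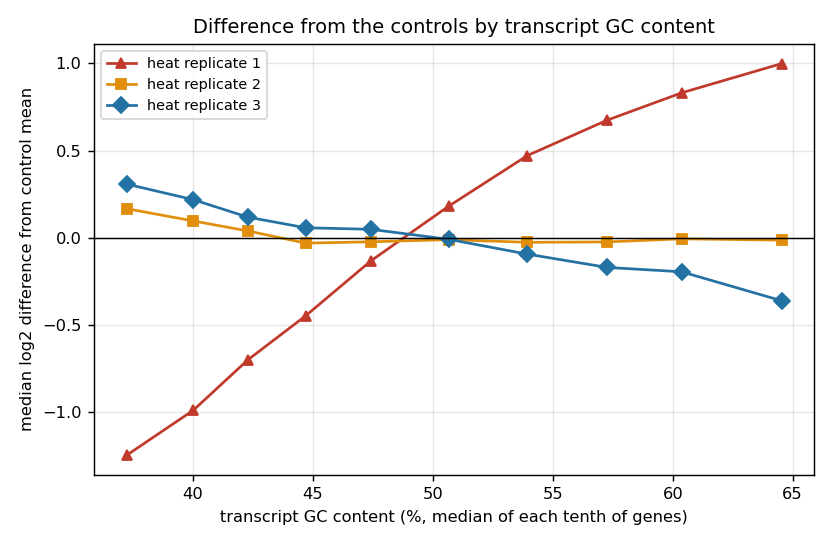
Median log2 difference from the mean of the 3 controls (y axis) in 10 equal bins of the tested genes ordered by transcript GC content (x axis, percent), with 1 line per heated library. Heat replicate 1 climbs from -1.25 to 0.998, while heat replicate 2 moves from 0.17 to -0.01 and heat replicate 3 declines from 0.31 to -0.36.

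Cell identity was checked first against epithelial and liver markers. The keratins KRT8 and KRT18 lay at 1230 to 3660 CPM and 223 to 997 CPM over the 6 libraries, and the liver transcription factor HNF4A at 83.1 to 114 CPM. Albumin (ALB, 0.582 to 5.14 CPM), alpha-fetoprotein (AFP, 0.971 to 3.66 CPM), EPCAM (0.227 to 1.36 CPM) and GPC3 (at most 0.116 CPM) were near 0. The cells thus had epithelial keratins and HNF4A, but hardly any of the secreted liver proteins that often define this tumour type.

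Across all genes, edgeR's quasi-likelihood test with Benjamini-Hochberg adjustment called 3 genes at an adjusted p below 0.05, which is 0.0238% of those tested (1 higher, 0.00792%, and 2 lower, 0.0158%). TRIM31, a ubiquitin ligase, rose. MAOA, the monoamine oxidase that degrades serotonin and related amines, and TNS4, a member of the tensin family, fell. An unadjusted p below 0.05 was reached by 2628 genes, 20.8% of those tested.

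TRIM31 stood at 1.14, 1.3 and 1.33 CPM in the controls and at 35.5, 23.9 and 29.2 CPM in the heated libraries. The groups are far apart, and the heated libraries lie within a factor of 1.49 of each other. Its log2 fold change was 4.54 with a standard error of 0.31 (adjusted p = 0.0192). MAOA was at 159, 149 and 150.3 CPM in the controls and at 27.9, 27.6 and 26.8 CPM after heat. Among the heated libraries it is nearly constant, even though these libraries differ widely in other genes, and it fell by 2.48 on the log2 scale (SE 0.23, adjusted p = 0.0489). TNS4, whose mean is below 10 CPM and which is named because only 3 genes were called, read 11.4, 11.6 and 12.70 CPM without and 1.16, 0.777 and 0.689 CPM with heat. It was low in every heated library, with a log2 fold change of -3.78 (SE 0.34, adjusted p = 0.0489). As means over n = 3 libraries, these are 1.26 ± 0.104 against 29.5 ± 5.8 CPM for TRIM31, 153 ± 5.64 against 27.4 ± 0.605 CPM for MAOA and 11.9 ± 0.71 against 0.874 ± 0.248 CPM for TNS4 (SD). In bulk samples like these, fewer cells of a type and less RNA per cell cannot be told apart.

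With median-ratio scaling edgeR called 1 gene higher and 0 lower (2659 at an unadjusted p below 0.05), so MAOA and TNS4 were not called there, while upper-quartile scaling called the same 3 genes. How many genes pass also depends on which heated libraries enter the fit. Without heat replicate 1, edgeR called 1795 genes higher (14.0% of 12830 tested) and 1896 lower (14.8%). Without heat replicate 2 it called 585 higher and 460 lower of 12851 tested. List counts from that fit below are to be read against these numbers. Without heat replicate 3 it called 0 of either kind (2666 genes at an unadjusted p below 0.05). Leaving out any single control also left 0 calls, with 1315, 1335 and 1374 genes at an unadjusted p below 0.05. Of the genes called without heat replicate 1, 326 higher and 308 lower ones were also called, in the same direction, without heat replicate 2. DESeq2 on all 6 libraries called 851 genes higher (6.74%) and 690 lower (5.46%), and edgeR with an offset for GC content and length called 679 higher (5.38%) and 699 lower (5.54%). TRIM31, MAOA and TNS4 were among the genes called in each of the fits without heat replicate 1, without heat replicate 2, with DESeq2 and with the offset. Adjusted p-values without heat replicate 1 are given beside the genes below, since the levels of that library moved most with GC content. In the edgeR fit to all 6 libraries with group as its only term and no offset, no gene named below passed apart from TRIM31, MAOA and TNS4. This holds also where only the value without heat replicate 1 is printed. Adjusted p-values given below for all libraries come from that fit. Other fits to the same 6 libraries called more. Of 82 genes followed, 67 passed with DESeq2 and not in that fit, and 58 with the offset and not in that fit.

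**Figure D2:**
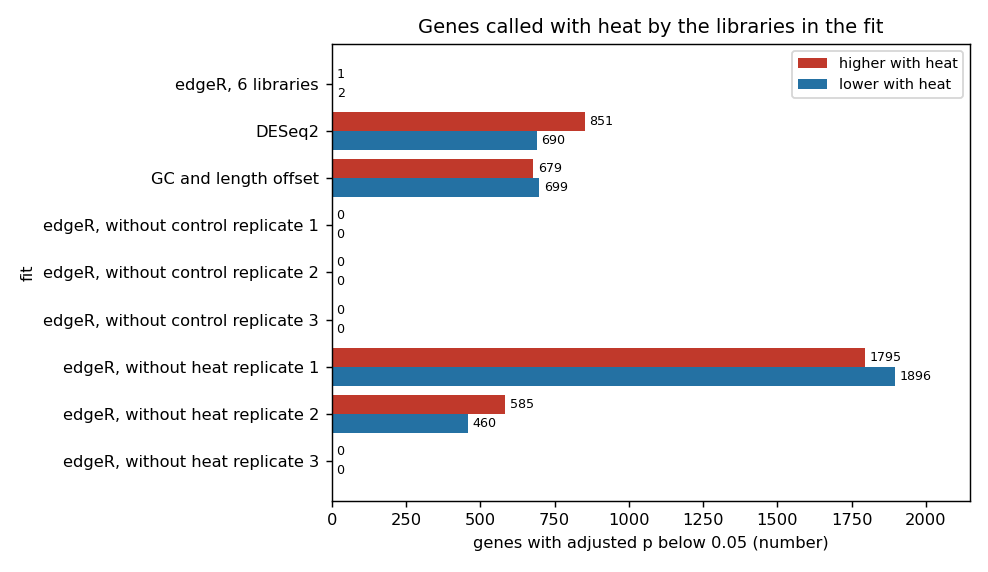
Number of genes with an adjusted p below 0.05 (x axis), higher (red) and lower (blue) with heat, for 9 fits (y axis). The fit to all 6 libraries with edgeR calls 1 and 2 genes, and the fit without heat replicate 1 calls 1795 and 1896.

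Among the genes in the study's title, IL4I1 had the largest difference. It was at 0.913, 0.907 and 1.1 CPM in the controls and 12, 12.8 and 7.81 CPM after heat. The heated libraries were at 12.4, 13.2 and 8.02 times the control mean. Every heated library lay well above every control, but the adjusted p was 0.0604 with all 6 libraries and 0.00437 without heat replicate 1. IL4I1 overlaps NUP62, a nuclear pore gene, on the same strand in GENCODE 29 and ATF5 on the other strand, and the protocol marks no strand, so reads shared between them are uncertain. NUP62 itself read 129.8, 131 and 144 CPM in the controls and 258, 168 and 202 CPM after heat, a far smaller difference (adjusted p = 0.233, and 0.0425 without heat replicate 1).

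AHR was at 100.01, 100.4 and 84.9 CPM in the controls and at 51.7, 127 and 177 CPM in the heated libraries. Heat replicate 1 is below the controls and the other heated libraries above them, so the groups overlap (adjusted p = 0.703, and 0.0362 without heat replicate 1). SP1 read 191, 192 and 184 CPM against 129, 176 and 208 CPM and also overlapped (adjusted p = 0.779, and 0.91 without heat replicate 1). Of 10 tested AHR target genes, 0 passed the edgeR test with all libraries (0 higher and 1 lower had an unadjusted p below 0.05, and DESeq2 called 0 higher and 1 lower), and 0 lay above and 4 below all controls in every heated library (0% and 40%, where all tested genes had 17.7% and 18.9%). CYP1A1, the AHR target that oxidises aromatic hydrocarbons, was at 15.8, 17.6 and 14.7 CPM in the controls and 6.46, 4.56 and 0.804 CPM after heat, lower in each heated library (adjusted p = 0.165, and 0.0315 without heat replicate 1).

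A second view asks which genes lay outside the control range in every heated library, whatever the spread among these. Of the tested genes, 2241 (17.7%) lay above all 3 controls in all 3 heated libraries and 2385 (18.9%) below. List counts of the same kind below are to be read against these shares. At least 2-fold from the control mean in every heated library were 142 genes above (1.12%) and 245 below (1.94%). The genes named from these sets were chosen after their values were seen, as the 12 per direction with the largest difference in their weakest heated library and a mean of at least 10 CPM. P-values of these genes come from the libraries they were chosen in, so they do not bear on the choice. The higher ones are HSPA6, CRYAB, TRIM31, CD300LB, FOSB, GADD45G, NEURL3, RND1, RRAD, HSPA1B, GFPT2 and HSPA1A. Of the lower ones, 11 are given here: HSD11B2, LOX, LAMA3, MAOA, COL6A3, AKAP12, SLCO2B1, SCNN1A, APOB, MUC1 and CLDN1.

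Among the higher genes, some were strongly uneven. CD300LB, a leukocyte surface receptor, was at 0.114, 0.113 and 0.058 CPM in the controls and 262, 7.09 and 69.9 CPM after heat. RRAD, a small GTPase, was at 0.571, 0.737 and 0.464 CPM without and 469, 4.03 and 67.6 CPM with heat. Both were hardly detected in the controls and highest in heat replicate 1. GADD45G, a stress-induced regulator of kinases, read 0.856, 0.681 and 0.58 CPM against 92.8, 7.96 and 22.5 CPM. RND1 read 1.94, 2.16 and 2.38 CPM against 90, 15.6 and 40.1 CPM. NEURL3 and GFPT2 were more even. NEURL3, a ubiquitin ligase, was at 2.63, 2.44 and 2.2 CPM without and 52.1, 20.4 and 17.4 CPM with heat. GFPT2, which feeds glucose into hexosamine synthesis, was at 3.2, 2.61 and 3.31 CPM without and 31.5, 12.72 and 24.6 CPM with heat. Neither overlapped the controls, and their adjusted p-values were 0.072 and 0.0716 with all libraries.

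Of the lower genes, 3 encode proteins of the extracellular matrix or its cross-linking, for which no gene list was followed. LAMA3, a laminin chain of the basement membrane, was at 553, 578 and 578 CPM in the controls and 51.7, 103 and 76.8 CPM after heat. COL6A3, a collagen VI chain, was at 75.5, 76.6 and 77.1 CPM without and 9.06, 9.08 and 15.1 CPM with heat. LOX, which cross-links collagen, was at 31.1, 25 and 26.2 CPM without and 0.867, 3.15 and 0.689 CPM with heat. All 3 lay far below the controls in every heated library, with adjusted p-values of 0.0699, 0.0699 and 0.0805 with all libraries and 0.00423, 0.00445 and 0.0104 without heat replicate 1. LOX overlaps SRFBP1 on the other strand. AKAP12, a scaffold for protein kinase A, was at 725, 764 and 708 CPM without and 34.9, 151 and 71.1 CPM with heat, lowest in heat replicate 1 (adjusted p = 0.0904). HSD11B2, which inactivates cortisol, was at 61.4, 51.9 and 49.3 CPM without and 6.65, 4.51 and 1.78 CPM with heat, lowest in heat replicate 3 (adjusted p = 0.0699). FN1, fibronectin, from the list for mesenchymal transition (2 of 12 members above and 3 below all controls in every heated library, 16.7% and 25%), was at 13250.0, 11744 and 10667 CPM in the controls and 2745, 3383 and 4256 CPM after heat (adjusted p = 0.00575 without heat replicate 1).

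Of the 9 tested epithelial and liver markers, 0 lay above and 2 below all controls in every heated library (0% and 22.2%). All tested genes had 17.7% and 18.9%, so the share below is near that of all genes. The medians of the list were 0.302, -1.14 and -1.01. Among its members edgeR called 0 lower with all libraries, 5 without heat replicate 1 and 2 without heat replicate 2, and DESeq2 called 2. Calls without heat replicate 1 are 55.6% of the list, against 14.8% of all genes, and those by DESeq2 22.2%, against 5.46%. The 2 below all controls in every heated library were CLDN1 and CDH1. SLCO2B1, MUC1 and SCNN1A, given beside them, are not on this list and were chosen by their fall. EPCAM, near 0, read 0.285, 0.227 and 0.638 CPM without and 0.289, 1.36 and 0.919 CPM with heat. CLDN1, a tight junction claudin, was at 23.5, 21.3 and 23.7 CPM in the controls and 4.82, 5.24 and 5.06 CPM after heat. SLCO2B1, an organic anion carrier, was at 29.5, 27.1 and 27 CPM without and 5.49, 5.82 and 5.29 CPM with heat. Like MAOA, both are almost the same in the 3 heated libraries (adjusted p = 0.0699 and 0.0604 with all libraries). MUC1, a mucin of the cell surface, was at 195, 164 and 161 CPM without and 41.9, 10.6 and 9.88 CPM with heat, with heat replicate 1 above the other heated libraries (adjusted p = 0.0976, and 0.00159 without it). SCNN1A, a sodium channel subunit, and CDH1, the E-cadherin of epithelial junctions, read 13.5, 13.1 and 7.18 CPM and 10.3, 19.8 and 11.9 CPM after heat, against control means of 59.2 and 47.6 CPM.

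**Figure D3:**
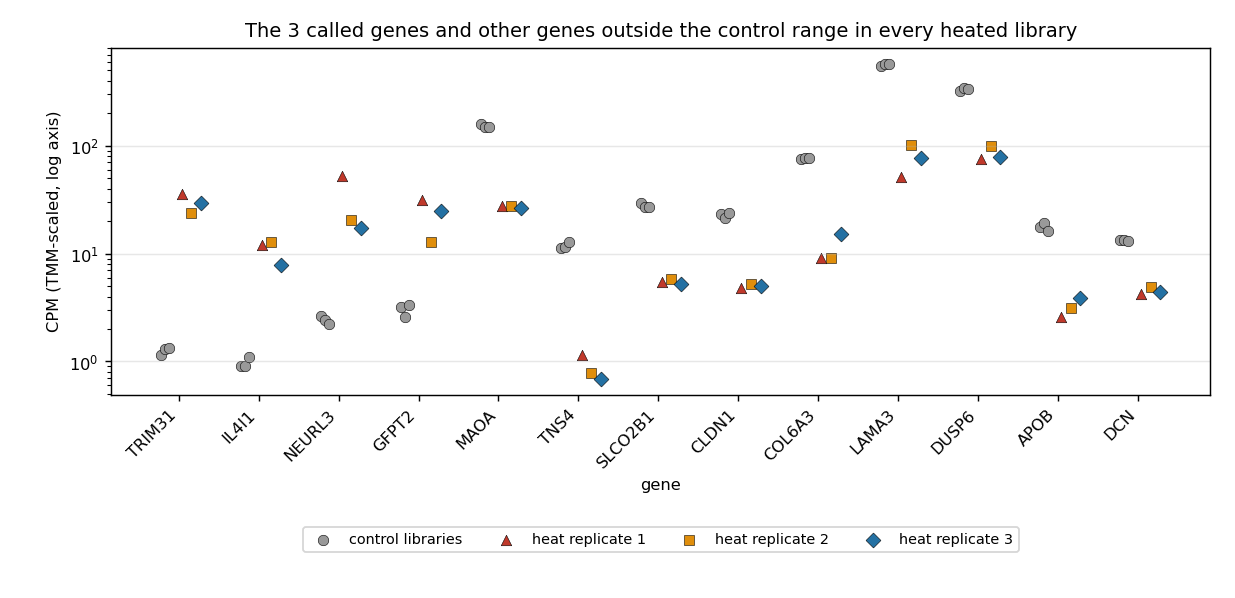
Level in CPM (log axis) in each library for 13 genes (x axis): grey circles are the 3 controls, and the triangle, square and diamond are heat replicates 1, 2 and 3. For each gene the heated libraries lie on 1 side of the controls, with MAOA at 27.9, 27.6 and 26.8 CPM and CLDN1 at 4.82, 5.24 and 5.06 CPM after heat.

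The heat-inducible Hsp70 genes lay far above the controls in each heated library, by an amount that differed widely between the libraries. Of 12 tested members of the family, 7 lay above all controls in every heated library and 0 below, 58.3% and 0% against 17.7% and 18.9% of all genes, and the median log2 difference was 1.51, 0.55 and 2.72 in heat replicates 1, 2 and 3. By edgeR, 0 members passed with all 6 libraries (7 higher and 0 lower had an unadjusted p below 0.05, and DESeq2 called 6 higher). As higher, 7 passed without heat replicate 1, where 14.0% of all genes did. Without heat replicate 2, 6 passed as higher, where 585 of all 12851 genes tested did. HSPA1A, the main heat-inducible Hsp70, was at 344, 352 and 366 CPM in the controls and 24668, 1309 and 15693 CPM after heat. This is 69.7, 3.7 and 44.3 times the control mean. All heated libraries lie above the controls, but heat replicate 2 has a small fraction of the level in the others (adjusted p = 0.0976, and 0.0226 without heat replicate 1). HSPA1B, its near-identical copy, read 20896, 1192 and 14626 CPM after heat against 297, 291 and 306 CPM, and the split of short reads between the copies is uncertain. Together they took 0.0668% to 0.0688% of all counts in the controls and 2.96%, 0.320% and 3.28% in the heated libraries.

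HSPA6, an Hsp70 made almost only under stress and the member with the element printed above, was at 1.14, 1.42 and 0.87 CPM in the controls and 2231, 109 and 1133 CPM after heat. It is close to the detection limit without heat and is abundant in heat replicates 1 and 3 (adjusted p = 0.0699, and 0.00808 without heat replicate 1). HSPA1L, which lies beside HSPA1A and HSPA1B in the genome, was at 6.39, 6.47 and 5.8 CPM without and 187, 18.9 and 205 CPM with heat, with heat replicate 2 again the lowest of the heated libraries (adjusted p = 0.0262 without heat replicate 1). HSPA2, known from germ cells, was at 2.57, 2.04 and 2.2 CPM without and 22.9, 4.42 and 17.1 CPM with heat. HSPA14, a ribosome-associated member, was at 30.4, 29.8 and 27.6 CPM without and 34.7, 42.9 and 72.9 CPM with heat. Both lay above the controls in each heated library, with adjusted p-values of 0.0351 and 0.0294 without heat replicate 1.

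Of the members also made without stress, HSPA8 and HSPA4L lay on different sides of the controls in different heated libraries, while HSPH1 did not. HSPA8, the constitutive Hsp70, was at 1062, 1130.1 and 1172 CPM in the controls and 2911, 343 and 1778 CPM after heat. It lies above the controls in heat replicates 1 and 3 and far below them in heat replicate 2 (adjusted p = 0.658, and 0.923 without heat replicate 1). Its element, printed above, is of the same kind as that of HSPA6. HSPH1, an Hsp110 that exchanges nucleotides on Hsp70, read 69.8, 77.4 and 67.7 CPM without and 223, 91.7 and 675 CPM with heat, above the controls throughout and highest in heat replicate 3 (adjusted p = 0.158, and 0.0547 without heat replicate 1). HSPA4L, its relative, was at 17, 18.8 and 15.4 CPM without and 11.8, 25.1 and 119 CPM with heat, with heat replicate 1 below the controls (adjusted p = 0.0482 without that library). Mitochondrial HSPA9 (515, 254 and 626 CPM after heat), HSPA4 (127, 114 and 214 CPM) and HSPA13 of the endoplasmic reticulum (5.69, 18.1 and 34.9 CPM) overlapped the controls.

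Hsp90 finishes the folding of kinases and receptors with the help of co-chaperones. Of 16 tested members of this group, 4 lay above and 1 below all controls in every heated library (25% and 6.25%, the former near the share of all genes), and the medians were 1.099, -0.15 and 1.22. HSP90AA1, the inducible Hsp90, was at 862, 882 and 883 CPM without and 1781, 877 and 3335 CPM with heat, with heat replicate 2 within the control range (adjusted p = 0.254). HSP90AB1, the constitutive one, was at 822, 871 and 871 CPM without and 4075, 668 and 2995 CPM with heat, with heat replicate 2 below the controls (adjusted p = 0.231). CHORDC1 read 42, 47.1 and 45.1 CPM without and 36.8, 40.1 and 163 CPM with heat, above the controls in heat replicate 3 alone (adjusted p = 0.439). FKBP5, a co-chaperone of steroid receptors, went the other way, at 94.2, 105 and 109 CPM in the controls and 15, 35.5 and 29.9 CPM after heat (adjusted p = 0.0904, and 0.00428 without heat replicate 1). CDC37, which brings kinases to Hsp90, was at 151, 156 and 162 CPM without and 391.7, 195 and 235 CPM with heat. It was the 1 member called higher without heat replicate 1 (adjusted p = 0.0381). Without heat replicate 2, 6 were called higher, where 585 of all 12851 genes tested were. That 1 member is 6.25% of the list, against 14.0% of all genes.

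Among 20 J-domain proteins, which hand clients to Hsp70, 6 lay above and 0 below all controls in every heated library (30% and 0%). All genes had 17.7% and 18.9%. DNAJB1, the main heat-inducible one, was at 174, 183 and 186 CPM in the controls and 5314, 337 and 2307 CPM after heat (adjusted p = 0.118, and 0.0341 without heat replicate 1). It overlaps TECR on the other strand. Among 10 small heat shock and BAG genes, 4 lay above and 1 below (40% and 10%). CRYAB, a small heat shock protein that keeps unfolded chains soluble, read 4.4, 3.63 and 4.81 CPM without and 2039.9, 131 and 327 CPM with heat. This is 477, 30.5 and 76.4 times the control mean (adjusted p = 0.0875, and 0.00428 without heat replicate 1). CRYAB overlaps HSPB2 and C11orf52 on the other strand. HSPB1 was at 457, 488 and 549 CPM without and 9368, 631 and 1544 CPM with heat, most of it in heat replicate 1 (adjusted p = 0.0619 without that library). BAG3, which couples Hsp70 to autophagy, was at 97.2, 99.4 and 108 CPM without and 2838, 190.5 and 2039 CPM with heat, and its partner HSPB8 at 44.1, 45.3 and 50.3 CPM without and 518, 72.5 and 357 CPM with heat. Both are lowest in heat replicate 2 and still above the controls there, with adjusted p-values of 0.0351 and 0.0422 without heat replicate 1.

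**Figure D4:**
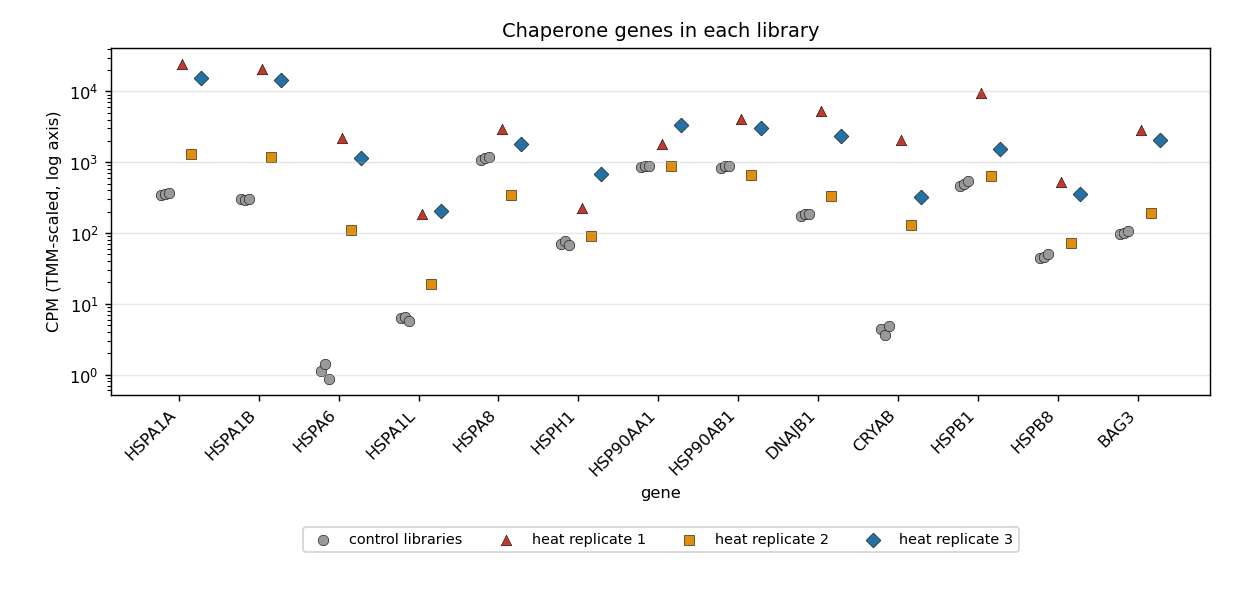
Level in CPM (log axis) of 13 chaperone genes (x axis) in each library: grey circles are the 3 controls, and the triangle, square and diamond are heat replicates 1, 2 and 3. Heat replicate 2 lies nearest to the controls for most genes, as in HSPA1A at 24668, 1309 and 15693 CPM after heat, and below them for HSPA8 and HSP90AB1.

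Heat shock factors and HSF1-bound genes outside the chaperone families had 7 of 20 members above and 2 below all controls in every heated library (35% and 10%), with medians of 1.44, 0.17 and 0.72. ZFAND2A, a stress-induced partner of the proteasome, was at 22.7, 21.8 and 22.8 CPM without and 304, 37 and 151 CPM with heat (adjusted p = 0.0378 without heat replicate 1). IER5, an activator of HSF1, was at 37.6, 38.6 and 41.8 CPM without and 549.9, 99.2 and 415 CPM with heat (adjusted p = 0.0223 without heat replicate 1). SERPINH1, the collagen chaperone Hsp47 whose element is printed above, was at 161, 153 and 152 CPM without and 798, 154 and 444 CPM with heat. Heat replicate 2 is within the control range, and SERPINH1 passed neither with all libraries (adjusted p = 0.192) nor without heat replicate 1 (0.126). The chaperonins, which fold actin, tubulin and mitochondrial proteins, had 2 of 10 above and 0 below (20% and 0%). The former is near the 17.7% of all genes. Of 31 proteasome genes, 9 lay above and 0 below (29% and 0%), with medians of 0.97, 0.03 and 0.27. Without heat replicate 1, 2 passed as higher and 1 as lower. These are 6.45% and 3.23% of the list, below the 14.0% and 14.8% of all genes.

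Stress of the endoplasmic reticulum and the ATF4 response, which follow unfolded secretory proteins and a block of translation, had members on both sides of the controls. The former had 3 of 20 members above and 3 below all controls (15% and 15%, against 17.7% and 18.9% of all genes), with medians of 0.35, -0.29 and 0.46. HSPA5, the Hsp70 of that compartment, was at 532, 558 and 563 CPM without and 2510.3, 481 and 2793 CPM with heat, high in heat replicates 1 and 3 and below the controls in heat replicate 2 (adjusted p = 0.192). The ATF4 list had 6 of 21 above and 1 below (28.6% and 4.76%), and its medians were 1.01, -0.15 and -0.17. PPP1R15A, which restores translation after stress, was at 198, 201 and 201 CPM without and 2241, 322 and 891 CPM with heat (adjusted p = 0.0333 without heat replicate 1), and was higher in every heated library.

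AP-1 and other immediate early genes, which are transcribed within minutes of kinase activation, lay mostly above the controls. Of 27 tested, 16 lay above and 1 below all controls in every heated library (59.3% and 3.7%), and the medians were 1.66, 0.602 and 1.502. By edgeR 0 passed with all libraries (18 higher and 0 lower had an unadjusted p below 0.05, and DESeq2 called 16 higher and 0 lower), and 14 passed as higher without heat replicate 1 and 13 without heat replicate 2. The calls without heat replicate 1 are 51.9% of the list, against 14.0% of all genes, and those by DESeq2 59.3%, against 6.74%. FOSB, an AP-1 subunit, was at 3.31, 2.67 and 3.71 CPM in the controls and 752, 43.8 and 314 CPM after heat, an order of libraries like that of the inducible Hsp70 genes (adjusted p = 0.0853, and 0.0113 without heat replicate 1). It overlaps ERCC1 on the other strand. ATF3, a stress-induced repressor, was at 29.5, 29.1 and 33 CPM without and 187, 47.1 and 120.4 CPM with heat. BTG2, which slows division, was at 8.73, 9.36 and 8.7 CPM without and 20.3, 15.9 and 23.6 CPM with heat. NR4A3, an orphan nuclear receptor, was at 0.685, 0.397 and 0.464 CPM without and 6.26, 3.35 and 20.4 CPM with heat, highest in heat replicate 3. These 3 genes do not overlap the controls, with adjusted p-values of 0.0365, 0.0162 and 0.0188 without heat replicate 1.

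Feedback inhibitors of MAP kinases lay on both sides of the controls. DUSP6, a phosphatase of ERK that follows ERK activity, was at 324, 343 and 338 CPM in the controls and 75.6, 98.9 and 78.9 CPM after heat. It is lower in every heated library and even among them (adjusted p = 0.0699, and 0.00428 without heat replicate 1). DUSP10, a phosphatase of the stress kinases JNK and p38, was at 12.4, 11.3 and 10.1 CPM without and 51.7, 26.5 and 51.1 CPM with heat, higher in each (adjusted p = 0.0888, and 0.0139 without heat replicate 1). Over the 14 tested members, 4 lay above and 3 below all controls (28.6% and 21.4%). All genes had 17.7% and 18.9%, so the share below is near that of all genes.

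NF-kB and inflammatory genes had 13 of 20 members above and 0 below all controls in every heated library (65% and 0%). Here edgeR called 0 higher with all libraries (11 at an unadjusted p below 0.05), 11 without heat replicate 1, 2 without heat replicate 2 and 6 with the offset, and DESeq2 called 6. The calls without heat replicate 1 are 55% of the list, against 14.0% of all genes, and those by DESeq2 30%, against 6.74%. The list's medians, 0.71, 0.52 and 0.88, differ less between the heated libraries than those of the Hsp70 list. RELB, a subunit of the non-canonical pathway, was at 27.1, 29.3 and 28.3 CPM without and 422, 73.2 and 109 CPM with heat. NFKB2, its partner, was at 52.5, 55.4 and 58.6 CPM without and 181, 147 and 99 CPM with heat. NFKBIE, an inhibitor that NF-kB itself induces, was at 11.3, 12.5 and 11.2 CPM without and 106, 26.7 and 32.4 CPM with heat. All 3 are above the controls in every heated library (adjusted p = 0.00598, 0.0134 and 0.00598 without heat replicate 1). The interferon list had 1 of 16 above and 1 below (6.25% and 6.25%, against 17.7% and 18.9% of all genes). The latter was OAS3, an antiviral sensor of RNA, at 209.8, 230.3 and 244 CPM without and 95.1, 121 and 99.1 CPM with heat. OAS3 lies across an antisense gene.

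Several genes of energy metabolism lay below the controls. Of 13 genes encoded by mitochondrial DNA, 0 lay above and 10 below all controls in every heated library (0% and 76.9%). Of these genes edgeR called 0 lower with all libraries (9 at an unadjusted p below 0.05), 10 without heat replicate 1, 0 without heat replicate 2 and 1 with the offset, and DESeq2 called 9. The calls without heat replicate 1 are 76.9% of the list, against 14.8% of all genes, and those by DESeq2 69.2%, against 5.46%. MT-CO1, a subunit of cytochrome oxidase, was at 18522, 18922 and 21446 CPM in the controls and 1835, 5822 and 4584 CPM after heat (adjusted p = 0.00428 without heat replicate 1). MT-CO3 was at 6547, 6578 and 7399 CPM without and 1441, 2447 and 2341 CPM with heat. Both are lowest in heat replicate 1, and all mitochondrial genes together took 7.99% to 9.59% of counts in the controls and 1.31%, 4.93% and 4.52% in the heated libraries. Of 24 respiratory chain genes of the nucleus, 0 lay above and 3 below (0% and 12.5%), and the medians were 1.36, -0.28 and -0.17.

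Glycolytic genes had 0 of 18 members above and 7 below (0% and 38.9%), with medians of 0.03, -0.72 and -1.07. For them edgeR called 0 lower with all libraries (4 at an unadjusted p below 0.05), 14 without heat replicate 1, 2 without heat replicate 2 and 5 with the offset, and DESeq2 called 2. Calls without heat replicate 1 are 77.8% of the list, against 14.8% of all genes, and those by DESeq2 11.1%, against 5.46%. LDHA, which turns pyruvate into lactate, was at 1890.1, 1838 and 1846 CPM without and 759.6, 1017 and 619.9 CPM with heat. PFKP, a phosphofructokinase, was at 419.9, 418 and 446 CPM without and 254, 229.8 and 146 CPM with heat. Both lay below the controls in all heated libraries (adjusted p = 0.019 and 0.0167 without heat replicate 1). The hypoxia list, which shares some targets, had 0 of 22 above and 10 below (0% and 45.5%), with medians of -1.28, -0.09 and -1.24. In the hypoxia list edgeR called 0 lower with all libraries (5 at an unadjusted p below 0.05). It called 4 without heat replicate 1, 7 without heat replicate 2 and 3 with the offset, and DESeq2 called 3. Calls without heat replicate 1 are 18.2% of the list, near the 14.8% of all genes, and those by DESeq2 13.6%, against 5.46%. Ribosomal protein genes lay high in 1 library: their medians were 2.66, -0.204 and 0.196, 0 of 31 were outside the control range in the same direction in every heated library, and RPS29 read 94.4, 85.4 and 81.9 CPM against 1068, 65 and 134 CPM. With the offset for GC content and length the median log2 fold change of this list was 0.59 in place of 1.43.

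Many genes of division lay below the controls in all 3 heated libraries. In the list for G2 and mitosis, 0 of 20 lay above and 12 below all controls (0% and 60%). In this list edgeR called 0 lower with all libraries (7 at an unadjusted p below 0.05), 13 without heat replicate 1, 0 without heat replicate 2 and 6 with the offset, and DESeq2 called 4. Without heat replicate 1 edgeR also called 1 higher. Lower calls made up 65% of the list in that fit, against 14.8% of all genes, and 20% by DESeq2, against 5.46%. MKI67, the proliferation antigen, was at 293, 326 and 297 CPM without and 107, 135 and 173 CPM with heat. TOP2A, which untangles chromosomes, was at 195, 196 and 180.2 CPM without and 50.5, 99 and 109 CPM with heat. Heat replicate 1 is the lowest for both (adjusted p = 0.0113 and 0.0077 without that library). KIF20A, a kinesin of cell cleavage, was at 46.8, 49.4 and 45.9 CPM without and 18.2, 23.6 and 25.8 CPM with heat. In the S phase list, 0 of 20 lay above and 10 below (0% and 50%). Here edgeR called 0 lower with all libraries (6 at an unadjusted p below 0.05) and 6 without heat replicate 1. Without heat replicate 2 it called 3 lower and 1 higher, with the offset 2 lower, and DESeq2 called 4 lower. Lower calls without heat replicate 1 are 30% of the list, against 14.8% of all genes, and those by DESeq2 20%, against 5.46%. RRM2, which makes deoxynucleotides, was nearly constant after heat, at 86.5, 92.8 and 102 CPM without and 38, 35 and 35 CPM with heat (adjusted p = 0.0832, and 0.00428 without heat replicate 1), and TYMS, which makes thymidylate, was at 39.9, 40 and 43.9 CPM without and 13, 21.8 and 19.3 CPM with heat. TYMS overlaps ENOSF1 on the other strand.

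Cholesterol and fatty acid synthesis had 0 of 23 members above and 13 below all controls in every heated library (0% and 56.5%). Its medians of -0.86, -0.97 and -0.58 lie on the same side in the 3 heated libraries. Among its members edgeR called 0 lower with all libraries (11 at an unadjusted p below 0.05), 11 without heat replicate 1, 3 without heat replicate 2 and 10 with the offset, and DESeq2 called 7. Calls without heat replicate 1 are 47.8% of the list, against 14.8% of all genes, and those by DESeq2 30.4%, against 5.46%. SCD, the desaturase of fatty acids, was at 1078, 1128 and 1268 CPM without and 244, 311 and 412 CPM with heat. LSS, which closes the sterol rings, was at 98.2, 114 and 138 CPM without and 45, 27.6 and 24.2 CPM with heat. ACACA, the first enzyme of fatty acid synthesis, was at 74.7, 84.2 and 89 CPM without and 38, 32.1 and 36.7 CPM with heat. Each is below the controls in every heated library (adjusted p = 0.00575, 0.00437 and 0.00593 without heat replicate 1). ACACA overlaps C17orf78 on the other strand.

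Tryptophan catabolism, the pathway IL4I1 belongs to, had 3 of 13 members above and 4 below all controls (23.1% and 30.8%). All genes had 17.7% and 18.9%. MAOA, described above, is on this list and is its single called member. KYAT3, which makes kynurenic acid, was at 20.3, 21.1 and 18.3 CPM without and 5.49, 8.1 and 5.98 CPM with heat, lower in every heated library (adjusted p = 0.0883, and 0.00761 without heat replicate 1), and it shares its strand with the overlapping gene RBMXL1. YAP and TEAD targets were mixed, with 6 of 16 above and 5 below (37.5% and 31.2%, against the same shares of all genes). CCN1, a matricellular growth factor, was at 10.8, 11.3 and 13.3 CPM without and 114, 22 and 138 CPM with heat, while WWTR1, the coactivator TAZ itself, was at 184, 195 and 176 CPM without and 101, 100.1 and 97 CPM with heat. Hepatocyte genes had 2 of 17 above and 4 below (11.8% and 23.5%), and APOB, the protein of lipoprotein particles, was at 17.6, 19.1 and 16.2 CPM without and 2.6, 3.15 and 3.85 CPM with heat (adjusted p = 0.0699, and 0.00428 without heat replicate 1).

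Over all 35 lists, 553 tested genes were followed, each counted once. By edgeR with all libraries 0 passed as higher (93 at an unadjusted p below 0.05, and DESeq2 called 67) and 1 as lower (MAOA). Above all controls in every heated library lay 104 (18.8%) and below them 113 (20.4%), against 17.7% and 18.9% of all genes, and at least 2-fold off in every heated library were 19 above (3.44%) and 26 below (4.7%), against 1.12% and 1.94%. DESeq2 called 12.1% of them higher and 8.68% lower, against 6.74% and 5.46%. Without heat replicate 1 edgeR called 75 higher (13.6%) and 120 lower (21.7%), against 14.0% and 14.8%. The median log2 fold change of the 553 genes was 0.22, and that of all tested genes 0.102.

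**Figure D5:**
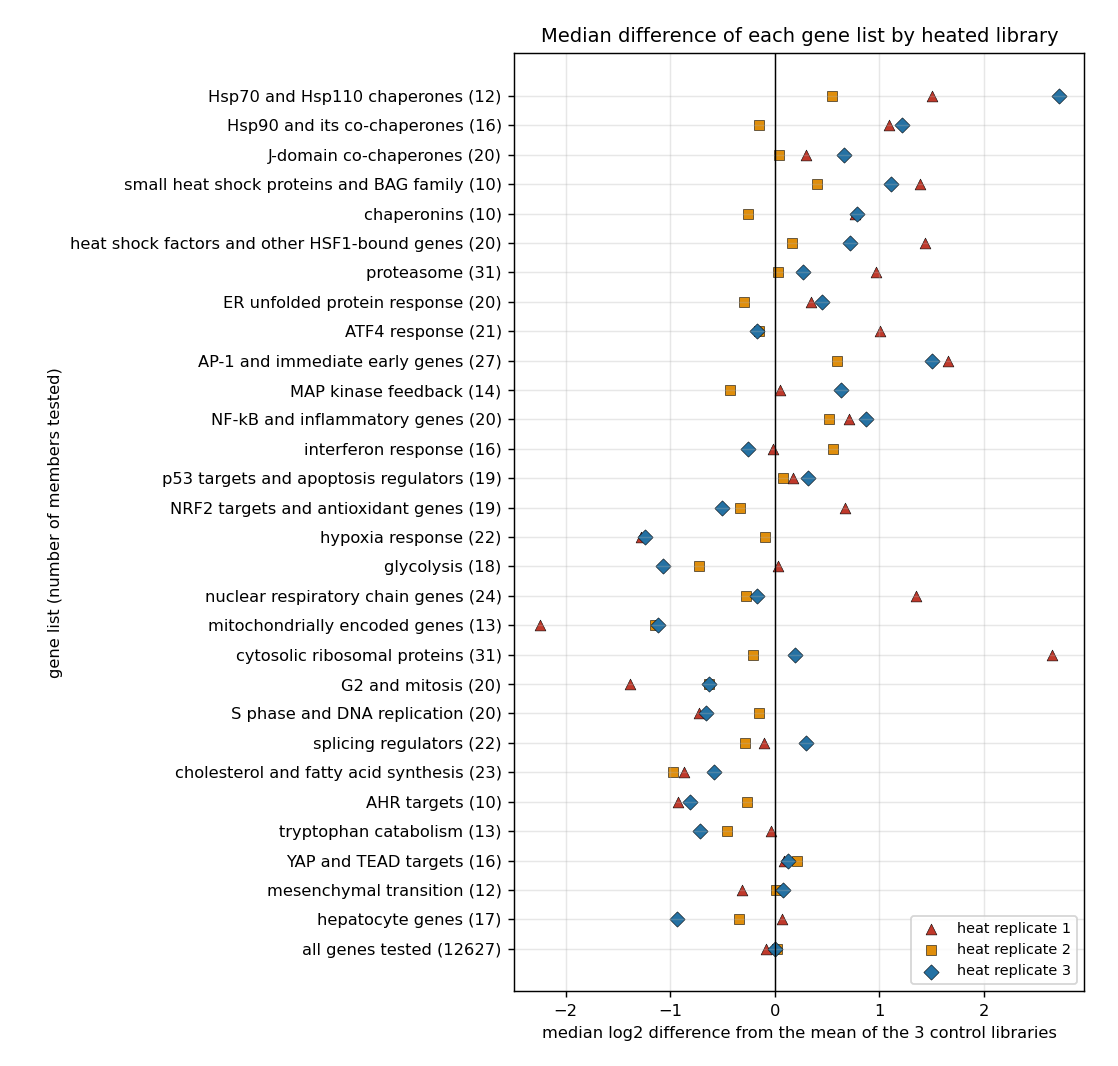
Median log2 difference from the mean of the 3 controls (x axis) of each gene list (y axis, number of tested members in brackets), with 1 symbol per heated library. The Hsp70 list lies at 1.51, 0.55 and 2.72 in heat replicates 1, 2 and 3, the list of mitochondrially encoded genes at -2.24, -1.14 and -1.11, and all genes tested near 0.

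Markers of cell types other than the cancer line were mostly near 0, with the exceptions named here. Of 13 macrophage and leukocyte markers, 4 were tested, AIF1 was at 0 in all 6 libraries, and PTPRC lay at 0.0575 to 0.754 CPM. The summed level was 228 to 247 CPM in the controls and 245 to 525 CPM in the heated libraries, nearly all of it CD68, a lysosomal protein. ITGAM, an integrin of myeloid cells, was at 6.45, 6.64 and 7.31 CPM without and 9.73, 38 and 24.8 CPM with heat (adjusted p = 0.00537 without heat replicate 1). Endothelial markers summed to 3.06 to 4.002 CPM in the controls and 3.35 to 6.75 CPM after heat. Fibroblast markers summed to 75.4 to 77.4 CPM and 21.7 to 56.3 CPM, mostly LUM and DCN, 2 proteoglycans. DCN was at 13.5, 13.3 and 13.1 CPM without and 4.24, 4.9 and 4.42 CPM with heat. COL1A1, a collagen I chain, went the other way, at 1.08, 0.681 and 1.04 CPM without and 5.59, 2.14 and 9.48 CPM with heat. Red blood cell markers summed to 0.284 to 0.742 CPM and 0.485 to 8.58 CPM. The part of these cells in any gene's difference was not tested. Overlaps with other genes on either strand also exist for HSP90AA1, CDC37, HSPA14, KIF20A, RPS29 and TXNRD1, whose reads are uncertain to that extent.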

How the data were processed

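Bulk mRNA of 6 libraries (3 controls, 3 heated, all in the 3D model) was measured. Per the labels' protocols, RNA was column-extracted, primed with random hexamers and sequenced as short single-end reads of DNA nanoballs, with no step that marks strand. The submitters' processing notes list HISAT2 and the build hg19, and the counting program is not given in the sources used here. The deposited values are raw counts per gene symbol. In 27 rows the symbol had become a date (0.0887% to 0.195% of counts per library); they stayed in the totals and were never named.

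These counts went into edgeR 4.0.16 (R 4.3.3): filterByExpr by group, TMM, and the robust quasi-likelihood test over 6 libraries with group as its only term, at a Benjamini-Hochberg adjusted p below 0.05. Total counts of 15991686 to 16963026 set the precision, and without molecular identifiers reads are not independent molecules. No libraries agreed within sampling noise. Alternatives were DESeq2 1.42.0, scaling by upper quartile or median ratio, a stricter filter or none, a replicate block, all 15 libraries in the fit, a fold threshold of 1.5, no robust estimation, a GC and length offset (splines of 5 df) and leaving out each replicate. GC content and overlaps came from GENCODE 29, matched by symbol for 99.4% of tested genes. Genes named are those called at a mean of 10 CPM or more with groups that do not overlap, SP1, IL4I1 and AHR, up to 4 members per list with the smallest adjusted p, members of the Hsp70, Hsp90 and small heat shock lists, and the 6 genes per direction in which each heated library departs most from the others. Some genes that these rules do not pick are named too, among them ATF3, BTG2 and NFKBIE. Not every gene picked is described, and NR4A2, REL and CXCL2 of the same lists are left out. The genes and lists were chosen with earlier results of these data known. No set test was run. The test was tried on simulated counts first. A gene that the naming rules pick is not reported here.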

Additional observations from a re-analysis of the deposited data

How the results depend on the processing

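Without heat replicate 1 the fit called 1795 genes higher and 1896 lower, and 75 and 120 list members. Over the fits that left out 1 replicate each, the counts ran from 0 to 1795 higher and 0 to 1896 lower, and from 0 to 75 and 0 to 120 for list members (0 to 61 higher and 0 to 27 lower among those that left out another library). Counts of genes above and below all controls ran from 2432 to 4090 and from 2550 to 3979 there. With other settings, calls higher and lower were 851 and 690 by DESeq2 (67 and 48 list members), 862 and 649 with all 15 libraries in the fit (70 and 52), 679 and 699 with the GC and length offset (46 and 49), 1 and 0 with median-ratio scaling (0 list members lower), 1 and 1 with no filter (0 list members lower) and 1 and 0 at a fold threshold of 1.5 (0 list members lower). Upper-quartile scaling moved the median log2 fold change of all genes from 0.10 to -0.02. With the replicate number as a block, 22 and 8 genes and 5 and 2 list members were called. Deviations of same-numbered libraries correlated at -0.188, 0.0945 and -0.260, and those of differently numbered ones at -0.288 to 0.342. The labels do not say what the number stands for. Whether same-numbered libraries share a day or culture was not tested. Over all alternatives, the adjusted p of TRIM31 ran from 8.25e-32 to 0.461, that of MAOA from 6.38e-26 to 0.461 and that of TNS4 from 7.35e-19 to 0.461. Of 1312 values (82 genes under 16 alternatives), 966 kept direction and side of the threshold, 324 passed only under the alternative, 17 no longer passed and 5 turned, namely the log2 fold changes of SP1 (0.10 with the GC and length offset, and -0.31 to 0.019 when 1 replicate was left out), AHR (-0.085 to 0.67), HSPA8 (-0.085 to 1.05) and CHORDC1 (-0.22 to 1.17). These turned without heat replicate 1 (SP1, HSPA8) or without heat replicate 3 (AHR, CHORDC1). The cause was not tested. Genes under 10 CPM rest on few reads, which limits the precision of their fold changes.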

Other observations

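Each heated library had genes that set it apart from the other two, chosen by the largest difference at a mean of at least 20 CPM and given as values only. Heat replicate 1 stood highest for ARC, an immediate early gene known from neurons, at 0.114, 0.34 and 0.116 CPM in the controls and 420.2, 1.65 and 41 CPM after heat. LGALS1, a galectin, read 489, 462 and 495 CPM without and 2973, 178 and 247 CPM with heat, so it was above the controls in heat replicate 1 and below them in the others. The same library was lowest for GOLGA8A, a golgin-like gene with near-identical copies whose reads are uncertain, at 26, 26.3 and 21.9 CPM without and 0.578, 38.3 and 19.8 CPM with heat. Heat replicate 2 had ANGPTL4, an inhibitor of lipoprotein lipase, near the controls (248, 209 and 217 CPM without and 37.1, 232 and 29.2 CPM with heat), and its lowest genes relative to the others include ARC, RRAD, CD300LB, HSPA1A and HSPA1B. Heat replicate 3 stood highest for YOD1, a deubiquitinase, at 16, 16.2 and 12.58 CPM without and 5.49, 37.6 and 107 CPM with heat, for HSPA4L and for HSPH1. It was lowest for MT1X, a metallothionein, at 20.9, 22.2 and 18.2 CPM without and 46.9, 12.72 and 3.45 CPM with heat, and for CKB, a creatine kinase, at 27.3, 23.4 and 25.3 CPM without and 80.9, 9.998 and 5.75 CPM with heat.

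NRF2 targets and antioxidant genes had 2 of 19 members above and 5 below all controls in every heated library, 10.5% and 26.3% against 17.7% and 18.9% of all genes, with medians of 0.67, -0.34 and -0.503. In this list edgeR called 0 lower with all libraries (2 at an unadjusted p below 0.05), 9 without heat replicate 1, 0 without heat replicate 2 and 2 with the offset, and DESeq2 called 1, where all genes had 14.8% lower without heat replicate 1. TXNRD1, a thioredoxin reductase, was at 2969, 3199 and 3216 CPM without and 1699, 2049 and 2190.2 CPM with heat. AKR1B10, an aldo-keto reductase high in liver tumours, was at 1656, 1706 and 1720.1 CPM without and 1177, 963 and 682 CPM with heat. Both lie below the controls in each heated library (edgeR adjusted p = 0.0191 and 0.0143 without heat replicate 1). The list of p53 targets and apoptosis regulators had 3 of 19 above and 2 below (15.8% and 10.5%). BCL2L11, the cell death inducer BIM, was at 30.4, 29.8 and 30.7 CPM without and 48.4, 70.3 and 88.3 CPM with heat, above the controls in every heated library (edgeR adjusted p = 0.116 with all libraries, and 0.00464 without heat replicate 1).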
